A study of Homo sapiens with 2 samples.

Results

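The 9 genes TGFBI, PMEPA1, ANGPTL4, SMAD7, SKIL, SKI, TGIF1, KLF10 and BHLHE40 are direct targets of SMAD transcription factors or feedback regulators of transforming growth factor beta (TGF-beta) signalling. They were chosen by gene symbol, with earlier results of these data known. All 9 were found among the 57736 genes of the deposited table. They were measured in A549, an established human lung adenocarcinoma line of epithelial origin, labelled wild type in both conditions and, per the series' design text, of a line named VIM RFP, for a red fluorescent reporter of vimentin. One group was A549 cells labelled as a TGF-beta-induced model of epithelial to mesenchymal transition (EMT), with 1 library, and the other was A549 cells given no treatment, with 1 library. No dose or duration of TGF-beta is stated in the labels. With 1 library per condition there is no replicate check and no test of the treatment, so no p-value is given, and a difference between the libraries is not shown to be a difference between the conditions.

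TGF-beta ligands assemble type I and type II receptor kinases, which phosphorylate SMAD2 and SMAD3. These bind SMAD4, enter the nucleus and switch on target genes within hours. Some of the targets act back on the pathway, so that SMAD7 and PMEPA1 dampen receptor signalling while SKI, SKIL and TGIF1 repress transcription on the SMAD complex. In lung epithelial lines including A549, TGF-beta is widely used to induce EMT.

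The library labelled TGF-beta EMT, called the treated library here, held 597133 rounded counts and the untreated library 674784, of which 43.7% and 32.7% fell in the 10 genes with the most counts. AmpliSeq is a multiplex PCR that reads one short stretch per targeted transcript, so a count depends on the amplicon and levels are compared here between libraries, not between genes. Values are counts, or CPM (counts scaled to library size) set by TMM (trimmed mean of M-values), and log2 ratios are the treated library over the untreated library with exact 95% intervals. The intervals cover counting error only, since reads copied by PCR, with no molecular identifiers, are not separate molecules. Common readouts of EMT and TGF-beta signalling lay on both sides, but not evenly. Of 34 other TGF-beta target genes with at least 5 CPM in 1 library, 18 were at least 2-fold lower and 5 higher. VIM, the gene of the reporter, had 56 counts in the treated library against 452 in the untreated library. CTGF, a matricellular gene known to be induced by TGF-beta, had 1 against 11. COL1A1, a collagen gene, had 356 against 196, or 2.29 times as many CPM. The labels are used as given. Whether the 2 libraries were exchanged, or differed in RNA quality, was not tested, and an exchange would turn every ratio given here.

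In the treated library 6 of the 9 genes had a level at least 2-fold lower and 1 a level at least 2-fold higher. TGIF1 lay between these bounds. SKIL had 3 counts or fewer in both libraries and gives no ratio. The 6 lower genes were the secreted proteins TGFBI and ANGPTL4, the feedback inhibitors PMEPA1 and SMAD7, and the transcription factors KLF10 and BHLHE40, and the higher gene was the corepressor SKI. The counting interval lay wholly below equality for these 6 and wholly above it for SKI. Where ribosomal protein genes set the scale in place of TMM, SMAD7 (log2 ratio 1.36), BHLHE40 (0.22) and the median of the 9 genes (0.22) turn to the higher side, TGIF1 (3.04) becomes at least 2-fold higher, KLF10 (-0.21) is no longer 2-fold lower, and ANGPTL4, TGFBI and PMEPA1 stay at least 2-fold lower. Over all 15401 genes with at least 5 CPM in 1 library, 26.7% lay lower by 2-fold or more and 22% higher, and 8 of the 9 genes passed this filter. The 15401 include genes at 3 counts or fewer in both libraries, some of them called higher. Of the 14067 with more than 3 counts in 1 library, 4111 lay lower and 2996 higher, against 4111 and 3391 of the 15401. Among the 5341 genes with at least 20 CPM in 1 library, which hold 8 of the 9 genes, 36% were lower and 18.5% higher. The median log2 ratio of the 9 genes was -2.93, with SKIL placed by the same rule as other genes, against 0.01 for all genes with at least 5 CPM and -0.16 for those with at least 20 CPM. The median is the ratio of BHLHE40.

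**Figure D1:**
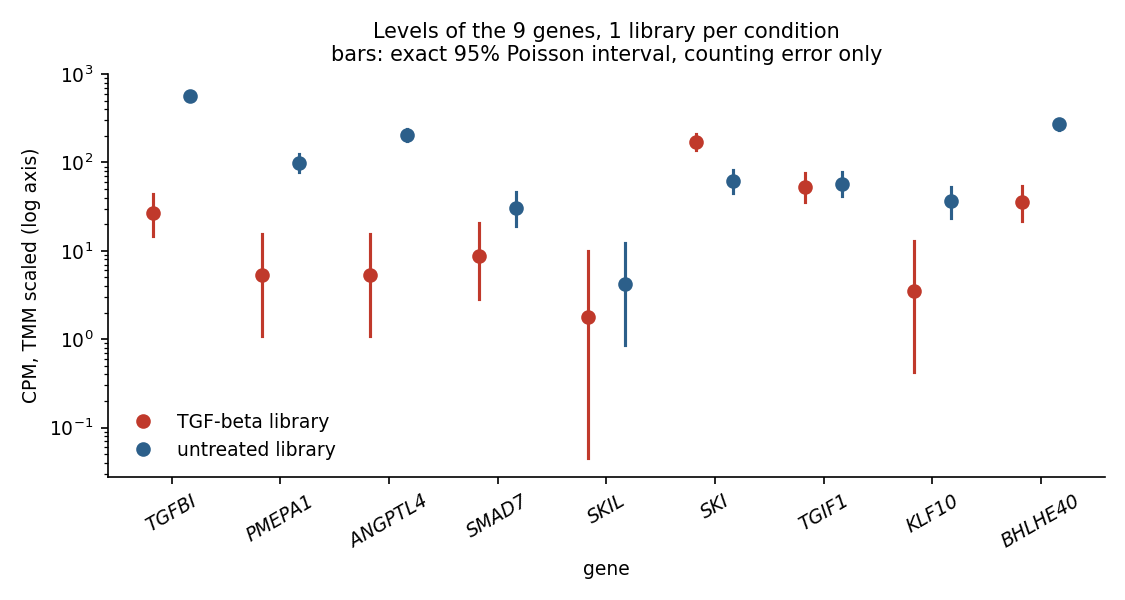
Levels of the 9 genes in CPM on a log axis, with the treated library (legend: TGF-beta library) in red on the left and the untreated library in blue on the right, and bars for the exact 95% Poisson interval of 1 library. TGFBI stood at 26.5 CPM in the treated library and 571 CPM in the untreated library, while SKI stood at 172 CPM and 61.7 CPM.

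Genes often used as references had low ratios too. The 74 expressed ribosomal protein genes had a median log2 ratio of -3.28, with 62 lower by 2-fold or more and 3 higher. All 85 found in the data took 0.250% of the counts in the treated library against 3.19% in the untreated library. GAPDH, a glycolytic enzyme, had 115 counts against 2764 (log2 ratio -4.25), ACTB, cytoplasmic actin, 34 against 463 (-3.43), and the elongation factor gene EEF1A1 34 against 460 (-3.42). RPLP0, B2M and PPIA had ratios of -3.83, -3.60 and -3.14, and TBP and HPRT1 had 3 counts or fewer in both libraries. Of the 9 genes, ANGPTL4, TGFBI and PMEPA1 lay below the ribosomal median, at differences of -1.99, -1.15 and -0.95 on the log2 scale, and 1, 6 and 8 of the 74 ribosomal protein genes had a lower ratio than each. KLF10 had a ratio close to that median. BHLHE40, SMAD7, TGIF1 and SKI lay above it, with 46, 59, 67 and 72 of the 74 below them. The part of these low ratios in those of the 9 genes was not tested. In bulk libraries, fewer cells that express a gene and less of its RNA per cell cannot be told apart.

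**Figure D2:**
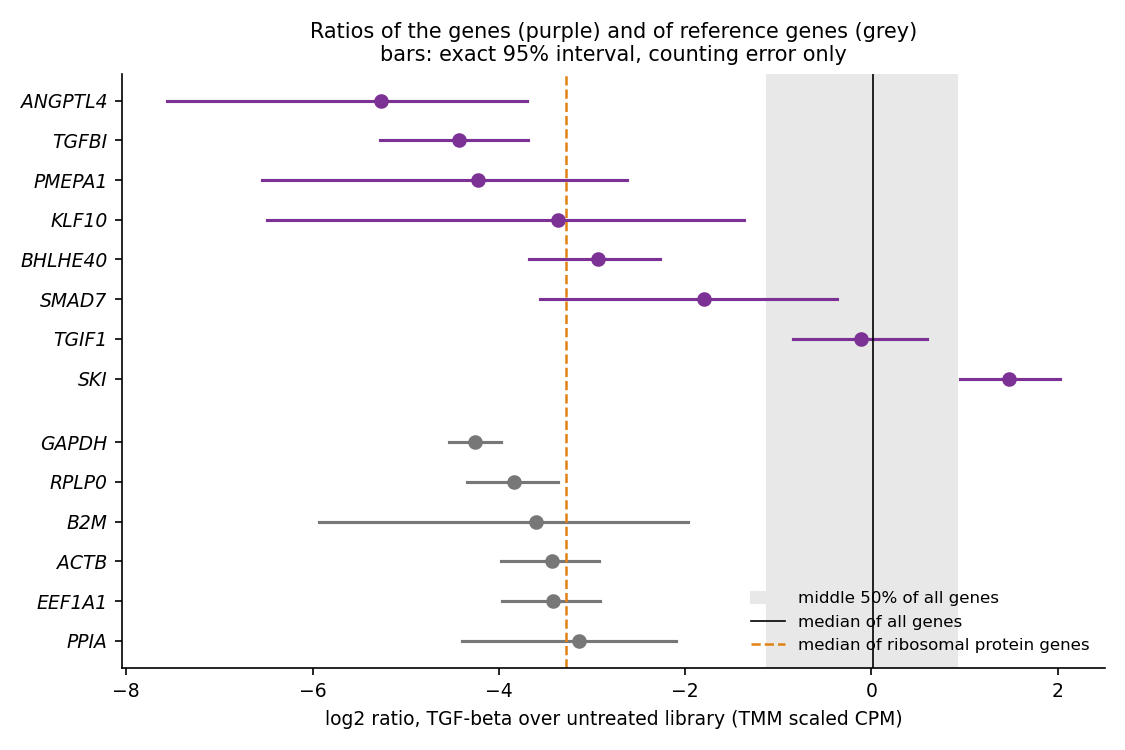
Log2 ratios of the treated library over the untreated library for the 8 genes with a ratio (purple) above 6 reference genes (grey), with exact 95% counting intervals. ANGPTL4 and TGFBI lie below all 6 reference genes, whose ratios run from -4.25 to -3.14, PMEPA1 and KLF10 lie within that span, and KLF10 is close to the ribosomal median of -3.28 (dashed), while TGIF1 lies within the middle 50% of all genes (-1.12 to 0.92) and SKI above it.

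TGFBI encodes a secreted matrix protein with fasciclin domains that binds collagens and integrins. The gene (ENSG00000120708, hg19 chromosome 5, 135364584 to 135399507, plus strand) was read with 15 counts in the treated library and 407 in the untreated library, or 26.5 CPM and 571 CPM. The log2 ratio was -4.43 (-5.28 to -3.69), and 2.47% of the genes with at least 20 CPM had a lower one. In the untreated library 99.0% of its counts lay in a pair of adjoining coding exons, 7 and 8 of 17, at 135385128 to 135385269 and 135388596 to 135388808. In the treated library that pair held 6.82 of the 15 counts, or 45.5%. A further 6.18 were placed by the authors in a 3836-base exon of a noncoding transcript, which runs across several coding exons and the introns between them and held almost none in the untreated library. Whether these reads lay in exons or introns cannot be told from the entries. The 3836-base exon includes all of exon 7, whose own counts are those of a merged region from 135385128 to 135385496. Reads of exon 7 could thus be placed in either, and the 45.5% follows the authors' placing. Over the regions of exons 7 and 8, with reads as placed, the log2 ratio was -5.51 (-6.84 to -4.46), lower than over the whole gene.

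ANGPTL4 encodes a secreted protein that inhibits lipoprotein lipase and is also known as a target of hypoxia and PPAR signalling. It had 3 counts in the treated library and 146 in the untreated library (ENSG00000167772, chromosome 19, 8428173 to 8439257, plus strand). Its log2 ratio of -5.27 (-7.56 to -3.69) was the lowest of the 9 genes, and 0.693% of the genes with at least 20 CPM had a lower one. In the untreated library 98.6% of its counts lay in the adjoining coding exons 3 and 4 of 7, with 104 in the first of them and 40.2 in the second. In the treated library 1 count lay in that pair, and the other 2 lay in an upstream exon region with no count in the untreated library.

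PMEPA1 encodes a membrane protein that holds receptor-activated SMADs away from the receptor complex. The gene (ENSG00000124225, chromosome 20, 56223448 to 56286592, minus strand) had 3 counts in the treated library and 71 in the untreated library, with a log2 ratio of -4.23 (-6.54 to -2.62). The first and second exons of its 4-exon transcript held 2 counts in the treated library and 68.0 in the untreated library, which were 66.7% and 95.2% of the gene. The remaining count of the treated library lay in the last exon region, at 0 in the untreated library.

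For these genes the counts of the untreated library lay on both sides of a splice junction. The spliced reference sequence at each junction is given from the GENCODE release 29 transcript of the same identifier, with the last 30 bases of the upstream exon in lower case and the first 30 bases of the downstream exon in capitals. Amplicon positions were not used here, so these are the exons that hold the counts and not the amplicons.
TGFBI exons 7 and 8: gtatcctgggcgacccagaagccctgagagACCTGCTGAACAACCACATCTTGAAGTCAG
ANGPTL4 exons 3 and 4: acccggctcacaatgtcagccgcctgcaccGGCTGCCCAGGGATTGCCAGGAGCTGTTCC
PMEPA1 exons 1 and 2: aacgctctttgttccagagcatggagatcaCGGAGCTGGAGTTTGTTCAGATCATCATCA

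SMAD7 is the inhibitory SMAD of the feedback loop, which occupies the activated type I receptor and brings SMURF ubiquitin ligases to it. It had 5 counts in the treated library and 22 in the untreated library (ENSG00000101665, chromosome 18, 46446223 to 46477081, minus strand). The log2 ratio was -1.80 (-3.56 to -0.37), and 25.7% of the genes with at least 20 CPM had a lower one, against 2.47% for TGFBI. The first exon region held 2 counts in the treated library and 16.5 in the untreated library. The last exon region held 2 against 1, so that first and last tied in the treated library. SMAD6, the other inhibitory SMAD, had 7 counts against 12 and a log2 ratio of -0.44 (-2.03 to 1.02), within counting error of equality.

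SKI and its relative SKIL (SnoN) bind SMAD complexes and recruit NCoR and histone deacetylases, and their proteins are degraded when the pathway is activated. SKI (ENSG00000157933, chromosome 1, 2160134 to 2241558, plus strand) reached 97 counts in the treated library and 44 in the untreated library. Its log2 ratio was 1.48 (0.95 to 2.02). The higher count lay in 1 exon. The first exon, 1041 bases at 2160134 to 2161174 of which 969 are coding, held 79 rounded counts in the treated library and 12 in the untreated library, a log2 ratio of 3.05 (2.17 to 4.07). The last exon, 3543 bases of which 189 are coding and the rest 3' UTR, held 18 against 23 counts, a log2 ratio of -0.02 (-0.99 to 0.94). An internal coding exon of 126 bases held none against 7.53. The 2-fold higher call of SKI therefore depends on its first exon, and over the last exon the libraries could not be told apart at this depth.

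SKIL (ENSG00000136603, chromosome 3, 170075466 to 170114623, plus strand) had an expected count of 0.5 in the treated library and 2.5 in the untreated library. A difference was not detectable at this depth. TGIF1, a homeodomain corepressor that competes with coactivators on SMAD2 (ENSG00000177426, chromosome 18, 3411606 to 3458409, plus strand), had expected counts of 29.5 in the treated library and 40.5 in the untreated library. The log2 ratio was -0.11 (-0.84 to 0.60) with TMM, and the interval holds equality. Its counts lay in the same place in both libraries. An exon region of 706 bases, number 13 of 19 from the 5' end, at 3451675 to 3452380, held 89.8% of them in the treated library and 92.6% in the untreated library.

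**Figure D3:**
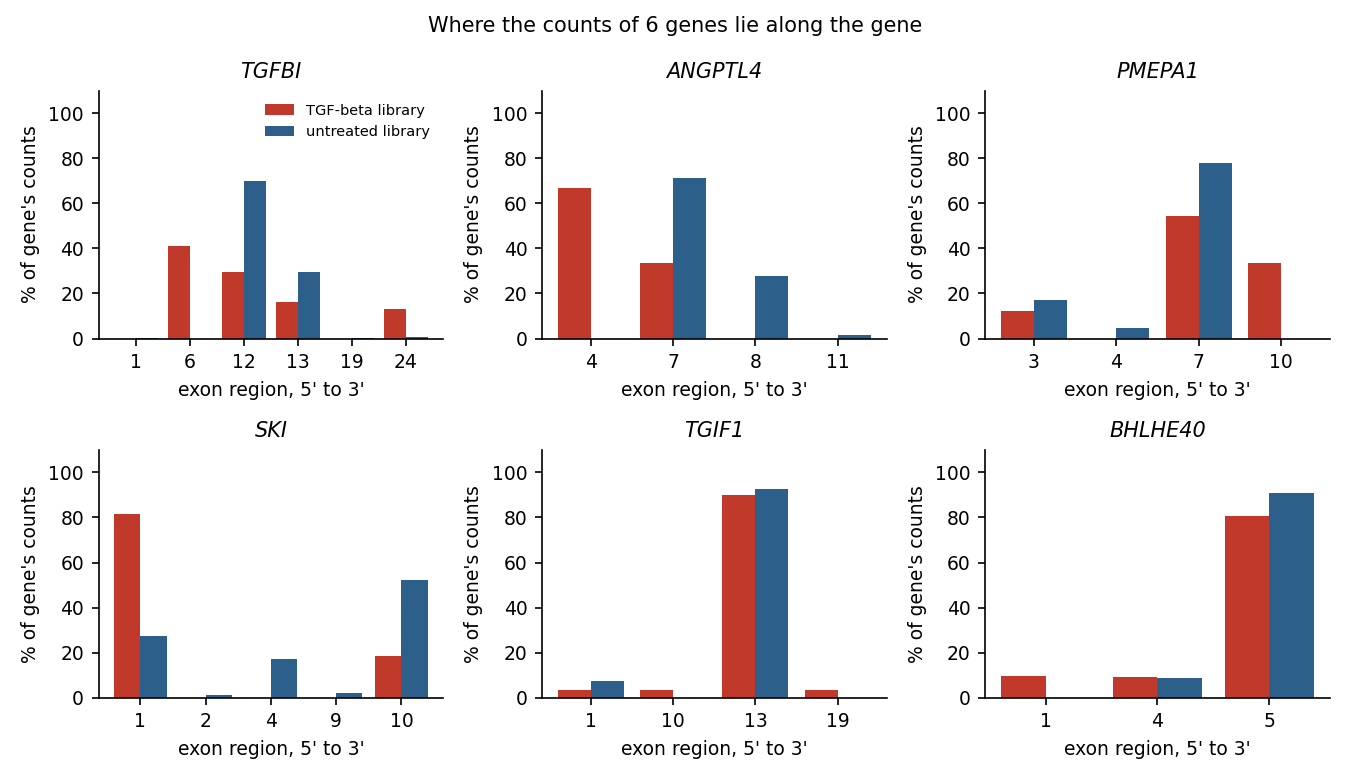
Percent of each gene's counts in its exon regions, numbered from the 5' end, for 6 of the genes, with the treated library in red on the left of each pair and the untreated library in blue on the right. TGIF1 and BHLHE40 have the same leading region in both libraries, while in SKI the first region leads with 81.4% in the treated library and the last with 52.2% in the untreated library. The regions shown hold at least 0.5 counts in 1 library, and ANGPTL4 and PMEPA1 have 3 counts each in the treated library.

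KLF10 (TIEG1) is a zinc finger factor induced early by TGF-beta. It had 2 counts in the treated library and 26 in the untreated library (ENSG00000155090, chromosome 8, 103661007 to 103668130, minus strand), with a log2 ratio of -3.36 (-6.48 to -1.37). In the untreated library 19.0 and 5.01 of its counts lay in a pair of adjoining coding exon regions that held none in the treated library. The 2 counts of the treated library were in the regions upstream of these, where the untreated library had 2. BHLHE40 (DEC1), a basic helix-loop-helix repressor known from the circadian clock and the hypoxia response (ENSG00000134107, chromosome 3, 5020801 to 5027008, plus strand), was at 20 counts in the treated library and 193 in the untreated library. Its log2 ratio was -2.93 (-3.68 to -2.27). Its counts kept their place, with 80.7% in a coding exon region of 433 bases in the treated library and 91.0% in the untreated library, and over that region the log2 ratio was -3.12 (-3.96 to -2.38). The antisense gene BHLHE40-AS1 overlaps its start and had expected counts of 1.5 and 2, and the counting is not stated to use strand.

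Among the 2816 genes with more than 1 exon region and at least 10 counts in both libraries, 80.1% had the same leading exon region in both. Of the 9 genes 4 reach that depth, and TGIF1 and BHLHE40 kept their leading region while TGFBI and SKI did not. For TGFBI this depends on the placing of reads described above. The part of the counts that the libraries shared by region was 93.2% for TGIF1, 89.7% for BHLHE40, 46.0% for TGFBI and 45.9% for SKI, against a median of 83.5% over these genes (quartiles 63.9% and 95.5%).

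Of 24 listed relatives of the 9 genes, 18 had a ratio, of which 2 lay lower by 2-fold or more, 5 higher and 11 between. Over all genes with at least 5 CPM in 1 library the shares were 26.7% lower and 22% higher. Some of the relatives' higher calls rest on few counts, with intervals that hold equality. KLF11, the closest relative of KLF10 and a TGF-beta target too, had 19 counts in each library. LDLRAD4, the relative of PMEPA1 that also inhibits receptor signalling, had 13 against 11 (log2 ratio 0.58, -0.70 to 1.88). ANGPTL2 had 17 against 22 (-0.04, -1.04 to 0.94) and ANGPTL6 42 against 51 (0.06, -0.57 to 0.67), beside -5.27 for ANGPTL4. SKOR2, of the SKI family, had 209 against 231 (0.19, -0.09 to 0.47), and DACH1, which shares the SKI homology fold, had 15 against 7 (1.44, 0.05 to 2.97). BHLHE41 (DEC2) went the other way from BHLHE40, with 8 counts in the treated library against 1 in the untreated library (3.34, 0.44 to 8.81). POSTN, which shares fasciclin domains with TGFBI, had 5 against 4, and the larger fasciclin proteins STAB1 and STAB2 had 41 against 47 and 17 against 7, with log2 ratios of 0.14 (-0.50 to 0.77) and 1.62 (0.27 to 3.13). Of the Kruppel-like factors, KLF9 had 3 against 12 (-1.66, -4.13 to 0.23), KLF13 10 against 10, KLF14 10 against 13 and KLF16 7 against 3 (1.56, -0.57 to 4.14). ANGPTL7 had 2 against 6 (-1.25, -4.59 to 1.23) and SKOR1 6 against 2 (1.92, -0.56 to 5.26). TGIF2LX had 0 against 7, or 1.85-fold lower with the 0 set to 3 counts, and its log2 interval lay below -0.19. ANGPTL1, ANGPTL5, ANGPTL8 (listed as C19orf80), DACH2 and TGIF2 had 3 counts or fewer in both libraries.

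The other genes of the pathway were described by role. Of 36 further target genes of TGF-beta signalling, 34 had at least 5 CPM in 1 library, and 18 of these (52.9%) lay lower by 2-fold or more and 5 (14.7%) higher, beside 26.7% and 22% of all genes. With at least 20 CPM in 1 library it was 14 lower and 2 higher of 20, beside 36% and 18.5%. The median log2 ratio of the 34 was -1.47, with 1 of them at 3 counts or fewer in both libraries. GADD45B, a stress-inducible growth arrest gene, had 2 counts in the treated library against 144 (log2 ratio -5.83, -8.89 to -3.96). CTGF, given above by its counts, had a log2 ratio of -3.12 (-8.55 to -0.34). Higher targets were BHLHE41, the inhibitor of differentiation gene ID3 with 4 counts against 1 (2.34, -1.0 to 7.96) and the integrin gene ITGB6 with 13 against 6 (1.45, -0.04 to 3.13).

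Ligands and latent-complex proteins had 6 of 16 expressed members (37.5%) lower and 2 (12.5%) higher, beside 26.7% and 22% of all genes. Their median was 0.07. TGFB1 and TGFB3, genes of different TGF-beta ligands, lay on opposite sides. TGFB1 had 12 counts in the treated library against 106 in the untreated library (-2.81, -3.80 to -1.94), and TGFB3 had 44 against 5 (3.47, 2.14 to 5.17). The divergent family member GDF15 had 3 against 26 (-2.78, -5.15 to -1.07), the Nodal antagonist LEFTY1 had 1 against 9 (-2.83, -8.29 to 0.02), and the activin subunit gene INHBA had 8 against 4 (1.34, -0.56 to 3.52).

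Receptors and coreceptors had 2 of 10 expressed members (20%) lower and 2 (20%) higher, near the 26.7% and 22% of all genes. Their median was 0.70, with 1 of the 10 at 3 counts or fewer in both libraries. TGFBR1, the type I receptor, had 5 counts against 17 (-1.43, -3.22 to 0.07), and TGFBR2, the type II receptor, had expected counts of 1.5 and 2, too few for a ratio. The decoy receptor BAMBI had 2 against 12 (-2.25, -5.45 to -0.08), and the activin receptor ACVR1B had 15 against 8 (1.24, -0.09 to 2.69). BMPR1A, with 4 against 2, gave 1.34 (-1.47 to 4.80).

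The SMAD list had 2 of 6 expressed members (33.3%) lower and none higher, beside 26.7% and 22% of all genes. Its median was -0.83. SMAD2 had 8 counts against 32 (-1.66, -2.99 to -0.52), SMAD3 5 against 16 (-1.34, -3.15 to 0.17) and the common partner SMAD4 6 against 8 (-0.08, -1.89 to 1.64). Inhibitors and corepressors had 3 of 11 (27.3%) lower and 2 (18.2%) higher, near the same shares of all genes, at a median of -0.02. Of the higher ones, 1 had 3 counts or fewer in both libraries. In this list the ubiquitin ligase SMURF1 had 5 against 16 (-1.34, -3.15 to 0.17). The SMAD7 partner STRAP had 0 against 8, or 2.11-fold lower with the 0 set to 3 counts, and its log2 interval lay below -0.44. The deacetylase HDAC1 had 1 against 4 (-1.66, -7.29 to 1.67) and the corepressor NCOR1 8 against 4 (1.34, -0.56 to 3.52). Coactivators and partner factors had 7 of 17 (41.2%) lower and 2 (11.8%) higher, beside the same shares of all genes, at a median of -0.60. ATF3, a stress-induced partner of SMAD3, had 9 counts against 77 (-2.76, -3.94 to -1.76), SNW1 had 5 against 42 (-2.73, -4.43 to -1.40), and the AP-1 subunit FOS had 5 against 32 (-2.34, -4.06 to -0.97). RUNX1, with 7 against 3, gave 1.56 (-0.57 to 4.14), and FOXH1, a SMAD2 partner, with 8 against 3, gave 1.75 (-0.31 to 4.30).

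**Figure D4:**
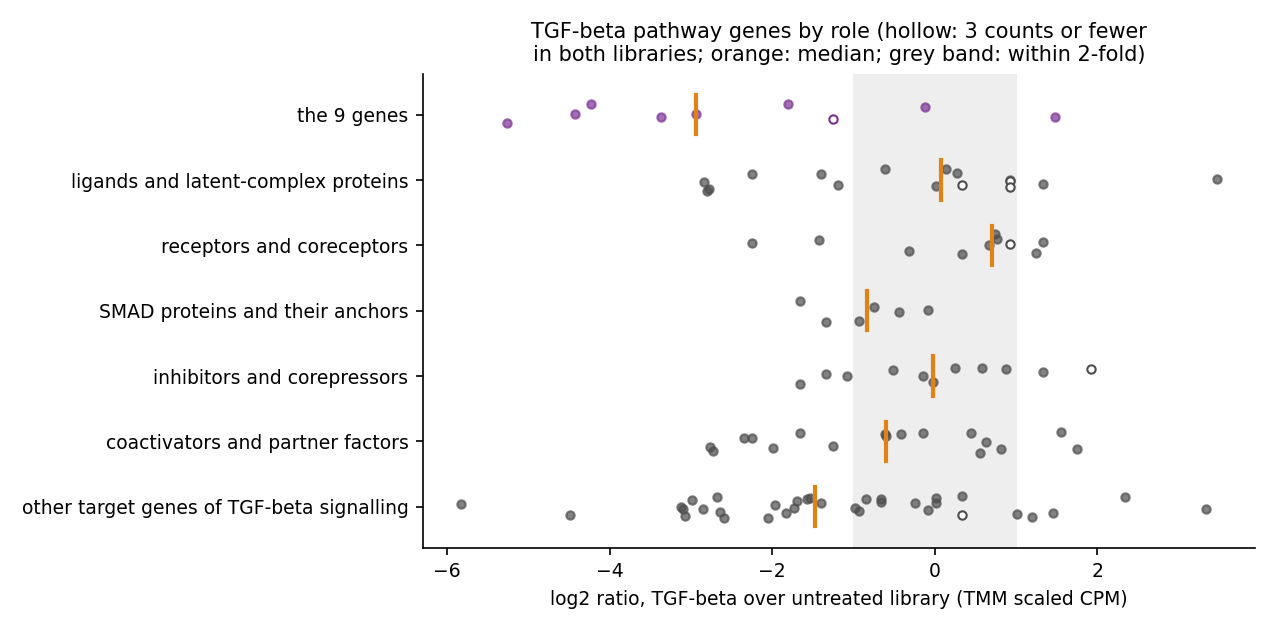
Log2 ratios of the treated library over the untreated library for the 9 genes and for the other pathway genes with at least 5 CPM in 1 library, by role, with the median of each row in orange and the span within 2-fold in grey. The medians run from -2.93 for the 9 genes and -1.47 for the other target genes to 0.70 for the receptors, and hollow points mark genes at 3 counts or fewer in each library, placed by the same rule.

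The genes most like each of the 9 were taken by the distance of log2 CPM over the 2 libraries, for the 8 with at least 20 counts in 1 library. Nearest to TGFBI were MIR3654, HSPB1 (heat shock protein 27) and the ribosomal protein gene RPS3, with 15, 15 and 16 counts in the treated library against 408, 409 and 459 in the untreated library. Nearest to ANGPTL4 were AKR1C2, RPS23 and DDIT4, and nearest to PMEPA1 were COX7B, PSMC4 and NDUFB4, each with 3 counts in the treated library. BHLHE40 lay nearest to SLC3A2, AKR1B1 and RPL30, SKI to FOXO6, MAPK8IP2 and ITGB5, and TGIF1 to MATN4, CD22 and SPAG4. SMAD7 and KLF10 shared their counts exactly with 7 and 6 other genes, first by name DPF2, LSM11 and LUC7L3 for SMAD7 and ATP5J2, BCKDK and BRAF for KLF10. With 2 libraries this likeness is no more than a similar pair of counts.

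**Figure D5:**
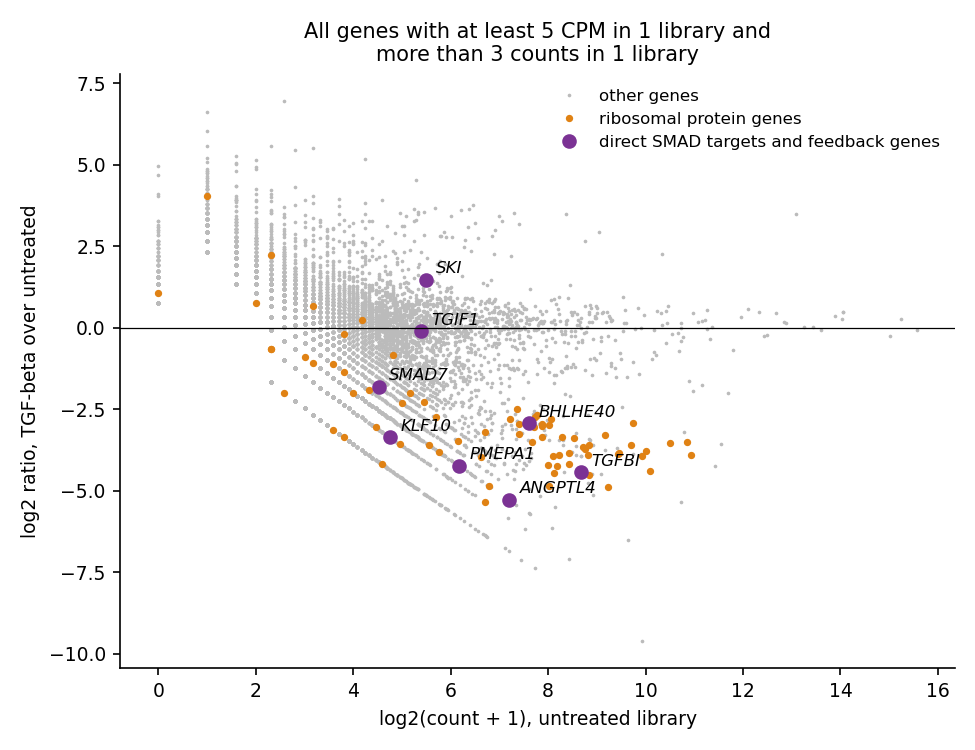
Log2 ratio of the treated library over the untreated library against log2(count + 1) of the untreated library, for genes with at least 5 CPM and more than 3 counts in 1 library. TGFBI and BHLHE40 lie among the ribosomal protein genes (orange) and ANGPTL4 at their lower edge, TGIF1 lies near 0, and SKI is the 1 of the 8 genes above 0.

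Markers of the cell type were read at low depth. Of 13 A549 and lung epithelial markers, 11 had counts in each library, with 130 summed counts in the treated library and 316 in the untreated library, and CEACAM6 was at 0 in both, KRT18 in the treated library and NAPSA in the untreated library. KRT7 had 32 counts against 179, KRT8 16 against 53 and KRT19 45 against 51. Other epithelial markers went the other way at low counts, with CDH1 at 4 against 1, EPCAM at 7 against 4 and SFTPB at 5 against 1. MUC1 had 6 against 5, CLDN4 8 against 9 and NKX2-1 4 against 8, all within 2-fold. Mesenchymal and fibroblast markers summed to 489 counts against 749, mostly from VIM and COL1A1, with 10 of 12 detected in each. CDH2 had 11 against 25, THY1 4 against 10, COL1A2 2 against 4, PDGFRB 48 against 52 and ACTA2 5 against 5, all within 2-fold. LUM was at 0 in both, COL3A1 in the treated library and FN1 in the untreated library. Endothelial markers summed to 49 against 51 with 7 of 7 detected in each library, leukocyte markers to 14 against 39 with 5 of 7 in each, LYZ being at 0 in both, and CD14 in the treated library, and erythroid markers to 7 against 7 with 3 and 2 of 4, HBA1 being at 0 in both and ALAS2 in the untreated library. The part of these in the ratios of the 9 genes was not tested.

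Promoter sequence was searched for short motifs in RefSeq windows of GRCh38.p14, from 250 bases before to 50 bases after each listed start, on both strands. The search covered 18 windows of 7 of the 9 genes, since a gene can have several starts. SKI and KLF10 were not analysed here. CAGAC, the SMAD binding element, was present in 13 of the 18 windows, against 45.3% of all 35116 windows. By gene, 6 of the 7 had it in at least 1 window, a share with no counterpart over all genes here. TGIF1 has 7 of the 18 windows and PMEPA1 4. The GC-rich SMAD motifs GGCGC and GGCCG were present in 13 and 12 of the 18, against 48.6% and 49.3% of all windows. GC content ran from 38% to 79% in the 18 windows, beside a median of 58.7% over all windows, and was not matched. TGANTCA, the AP-1 site, was in 3 of 18 windows, all of TGIF1, against 7.71% of all, and TGTCA, the TGIF site, in 7 of 18 against 38.9%. GGCGC and GGCCG can share letters where they meet, and windows of 1 gene can overlap each other, so the 18 are not independent. The windows of the 4 genes with the most counts in the untreated library are shown 5′ to 3′ on the strand of the gene, with CAGAC or its reverse complement GTCTG in capitals, and for PMEPA1 the window of its 4 with the most matches. A match is a description of the letters and not a bound site.
TGFBI, chr5:136028738-136029037, plus strand: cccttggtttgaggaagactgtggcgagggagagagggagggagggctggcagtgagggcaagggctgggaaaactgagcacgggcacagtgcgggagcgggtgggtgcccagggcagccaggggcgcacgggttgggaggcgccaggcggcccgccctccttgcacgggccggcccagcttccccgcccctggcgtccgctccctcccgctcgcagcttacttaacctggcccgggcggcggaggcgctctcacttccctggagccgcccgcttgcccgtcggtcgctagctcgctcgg
ANGPTL4, chr19:8363905-8364204, plus strand: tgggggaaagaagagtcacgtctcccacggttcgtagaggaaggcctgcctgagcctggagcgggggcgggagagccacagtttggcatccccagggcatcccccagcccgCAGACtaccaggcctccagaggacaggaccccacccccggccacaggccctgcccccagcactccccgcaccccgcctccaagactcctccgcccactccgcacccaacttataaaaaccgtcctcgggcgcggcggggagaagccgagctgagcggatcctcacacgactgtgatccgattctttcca
PMEPA1, chr20:57709966-57710265, minus strand: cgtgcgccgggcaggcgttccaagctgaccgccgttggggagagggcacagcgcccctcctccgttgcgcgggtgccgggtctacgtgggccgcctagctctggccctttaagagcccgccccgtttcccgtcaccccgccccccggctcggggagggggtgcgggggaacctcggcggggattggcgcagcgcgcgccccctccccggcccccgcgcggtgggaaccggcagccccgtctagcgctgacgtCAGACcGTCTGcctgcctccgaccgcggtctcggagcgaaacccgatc
BHLHE40, chr3:4979187-4979486, plus strand: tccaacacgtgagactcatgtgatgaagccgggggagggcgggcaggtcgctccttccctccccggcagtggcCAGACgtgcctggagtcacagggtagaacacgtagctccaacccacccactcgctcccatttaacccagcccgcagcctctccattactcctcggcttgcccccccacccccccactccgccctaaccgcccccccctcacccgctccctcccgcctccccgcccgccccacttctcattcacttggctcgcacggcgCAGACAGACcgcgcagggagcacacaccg
Counted from 1 at the 5′ end of the window, BHLHE40 has matches at 74, 272 and 276, the last pair sharing a base, PMEPA1 has one on each strand at 253 and 259, ANGPTL4 has 1 at 112, and TGFBI has none in this window, where GGCGC has 4 matches and GGCCG 3.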

How the data were processed

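AmpliSeq Transcriptome libraries were made from 10 ng of total RNA, per the labels' protocols. The authors deposited 1 table of expected counts, not normalized, in hg19 coordinates, in which transcript entries hold shares and exon entries hold the gene's count divided over transcripts and exons. Per the submitters' processing notes, which name hg19 and DESeq, their roles are not stated. For the aligner, the counter and the use of strand, nothing is given in the labels. Gene entries were rounded (0.5 upward) and scaled with TMM in edgeR 4.0.16 under R 4.3.3 (factors 0.946, treated, and 1.06, untreated). DESeq2 1.42.0 gave size factors for an alternative only.

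Genes needed 5 CPM in 1 library to be compared, and called means at least 2-fold. Zero counts were set to 3 (5.31 CPM treated, 4.21 CPM untreated), and for a single gene no ratio is given where both counts were at or under it. Such genes still enter the shares and medians over all genes and role lists where they pass 5 CPM. With 3 counts a gene passes in the treated library only, so this adds to the higher calls and not to the lower ones. Equal counts give a log2 ratio of 0.34 after scaling. Ratios have exact 95% Clopper-Pearson intervals given the summed count, and those of CPM exact Poisson intervals. All gene and exon coordinates are hg19. Exon entries overlapping by at least 0.3 of the longer were merged into regions. Computations were tested on simulated data. Named genes are the 9 genes, their listed relatives, the 3 lowest and 3 highest called genes of each role list, a few core pathway genes, reference genes and the 3 nearest genes by CPM; a few of these are not reported here. The members and lists were chosen with earlier results of these data known. Alternatives covered scaling, filters, rounding, the floor and the exon used.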

Additional observations from a re-analysis of the deposited data

How the results depend on the processing

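No paired analysis was possible because each condition has 1 library, and for the same reason no replicate could be left out. Outside scaling on the ribosomal protein genes, the 6 lower genes stayed at least 2-fold lower under each alternative run, with TGFBI between -5.81 and -4.35 and SMAD7 between -2.66 and -1.69 on the log2 scale, and the median of the 9 genes between -3.15 and -2.66. Scaling on the ribosomal protein genes shifted every log2 ratio by 3.16. It left 3 of the 9 genes at least 2-fold lower and put 3 at least 2-fold higher, with ANGPTL4 at -2.11, TGFBI at -1.27, PMEPA1 at -1.07, KLF10 at -0.21 and TGIF1 at 3.04, and turned SMAD7 to 1.36, BHLHE40 to 0.22 and the median of the 9 genes to 0.22. It gave 199 lower and 20571 higher of the 22375 genes that then passed the filter, and 2 lower and 88 higher among the other pathway genes, against 38 and 13 of 93 with TMM. SKI was 3.05 over its first exon and turned to -0.018 over its last, an alternative chosen after seeing the data, which left 0 of the 9 genes at least 2-fold higher. Over all genes the 1 CPM filter, like no filter beyond 1 count, gave 7430 lower and 6903 higher genes, and the 20 CPM filter gave 1921 lower and 986 higher, because fewer or more genes enter. Of the 54 other pathway genes that passed the 20 CPM filter, 27 were lower and 4 higher, beside 36% and 18.5% of all genes at that filter. Higher genes made up 45.2% of the calls over all genes with TMM (3391 higher, 4111 lower) and 34.1% with DESeq2 size factors (2463 higher, 4753 lower). With DESeq2 size factors, ratios shifted by -0.22 and 14067 genes passed the filter against 15401, and with TMM those with more than 3 counts in 1 library, also 14067, gave 2996 higher and 4111 lower (42.2%). Upper quartile scaling gave 50.4% (3957 higher, 3887 lower). Scaling on total counts shifted them by -0.16. Counts of 2 to 5 in the treated library limit ANGPTL4, PMEPA1, SMAD7 and KLF10 to wide intervals, and SKIL to none.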
